A study of Mus musculus with 6 samples.

Results

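LSK cells carry Sca-1 and c-Kit but no lineage markers, and this fraction of bone marrow holds blood stem cells and multipotent progenitors. The G protein-coupled receptor genes of these cells were compared between 3 bcat(ex3)osb mice and 3 wild-type (WT) littermates, with 1 RNA-seq library per mouse. Receptors were chosen by symbol and by a count rule that does not use genotype, with earlier results of these data known. The symbols were Gpr followed by a digit, Adgr, S1pr, P2ry, Lpar, Ptger, Adora or F2r. The count rule was 10 or more counts in 3 or more libraries. Of 125 such symbols among the 23420 genes of the table, 64 met this rule. They were 38 Gpr genes, 7 P2ry genes, 4 genes each of the S1pr, Lpar, Ptger and Adora families, and 3 F2r genes. The table uses older names for adhesion receptors, so 0 symbols began with Adgr, and 9 members such as Gpr56 (now Adgrg1) were matched to RefSeq through an older name.

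The bcat(ex3)osb genotype keeps β-catenin signalling switched on in osteoblasts, which build bone, while the cells sequenced here were blood progenitors. The WT mice were littermates of the mutants. Neither the promoter that drives the allele in osteoblasts nor the age or strain of the animals is given in the labels. Total counts lay between 15431235 and 19956774 per library. Judged by Xist and Y chromosome genes, males were mutant mice 1 and 2, and females were mutant mouse 3 and the WT mice, so sex and genotype are partly confounded. Per-mouse values below follow the mouse numbers 1, 2 and 3 within each genotype. The library of mutant mouse 2 stood apart on the leading principal component (50.8% of variance). Kit, which encodes the c-Kit of the sort, was at 490.0, 345 and 725 CPM in the bcat(ex3)osb mice, against 1002, 323 and 720.1 CPM in the WT mice. Ly6a, which encodes Sca-1, had a mean of 74.4 ± 7.87 CPM in the bcat(ex3)osb group, against 155 ± 6.75 CPM in the WT group (SD, n = 3 per group), without overlap. Summed over 10 genes of the LSK gate, the level was 3187 to 3907 CPM in mutant and 3184 to 4831 CPM in WT mice. Of these genes, 9 had a negative log2 fold change, where 50.3% of all genes tested had a positive one. At an edgeR unadjusted p under 0.05, 2 of them were lower, against 3.13% of all genes. The median of the 10 genes was -0.42, against 0.00 for all genes.

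G protein-coupled receptors span the membrane several times and pass a signal from a ligand outside the cell to heterotrimeric G proteins inside it. Gs raises cyclic AMP, Gi lowers it, Gq activates phospholipase C beta, and G12 and G13 act on the cytoskeleton. In marrow such receptors read lipids, nucleotides, proteases and protons, and they direct the retention, egress and migration of progenitors. Some Gpr symbols belong to membrane proteins of the Golgi or lysosome that are not known to work as surface receptors, among them Gpr89, Gpr107, Gpr108 and Gpr137. The symbol Gpr137b-ps is annotated in RefSeq as a transcribed pseudogene, and its reads cannot be told apart from those of Gpr137b with certainty.

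No receptor differed between genotypes past the threshold of an adjusted p of 0.05, although several non-overlapping differences of moderate size were seen. S1pr1, the sphingosine-1-phosphate receptor of lymphocyte and progenitor egress, and the adhesion receptor Gpr133 had lower values in each mutant mouse than in any WT mouse. The proton sensor Gpr65, the adenosine receptor Adora2a, the nucleotide receptor P2ry2, the orphan receptor Gpr160 and the oxysterol receptor Gpr183 had higher values in each mutant mouse. By edgeR's quasi-likelihood test with Benjamini-Hochberg adjustment, 0 members passed in the higher direction and 0 in the lower, as did 0% of the 12653 genes tested in either direction. The smallest edgeR adjusted p of a member was 0.449. limma-voom called 0 members, and DESeq2 called 1, Gpr133, as lower, beside 0.537% of all genes called lower and 0.798% called higher.

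At an unadjusted p under 0.05, 6 of the 63 tested members were higher, or 9.52%, and 3 were lower, or 4.76%. Over all genes tested the shares were 3.43% and 3.13%. The number of such members, 9 in all, became 14 without mutant mouse 2, 4 without WT mouse 3 and 4 with sex as a covariate. The 3 mutant values lay above the 3 WT values for 7 members (11.1%, against 6.89% of all genes) and below them for 5 (7.94%, against 7.67%). The shares of members below WT are near those of all genes, and the counts above WT rest on few genes. Positive log2 fold changes were found for 40 tested members (63.5%, against 50.3% of all genes tested) and negative ones for 23. Their median was 0.13, where the median of all genes tested was 0.00. The sign of the members' median was not stable: it was -0.0023 on log2(FPKM + 1) and -0.05 on log2(FPKM + 0.1). The median of all genes was lower on both scales, at -0.06 and -0.08. Of the 64 members, 48 had 10 counts in all 6 libraries, 1 reached 10 counts in all mutant but fewer than 3 WT libraries, and 8 did so in all WT but fewer than 3 mutant libraries.

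**Figure D1:**
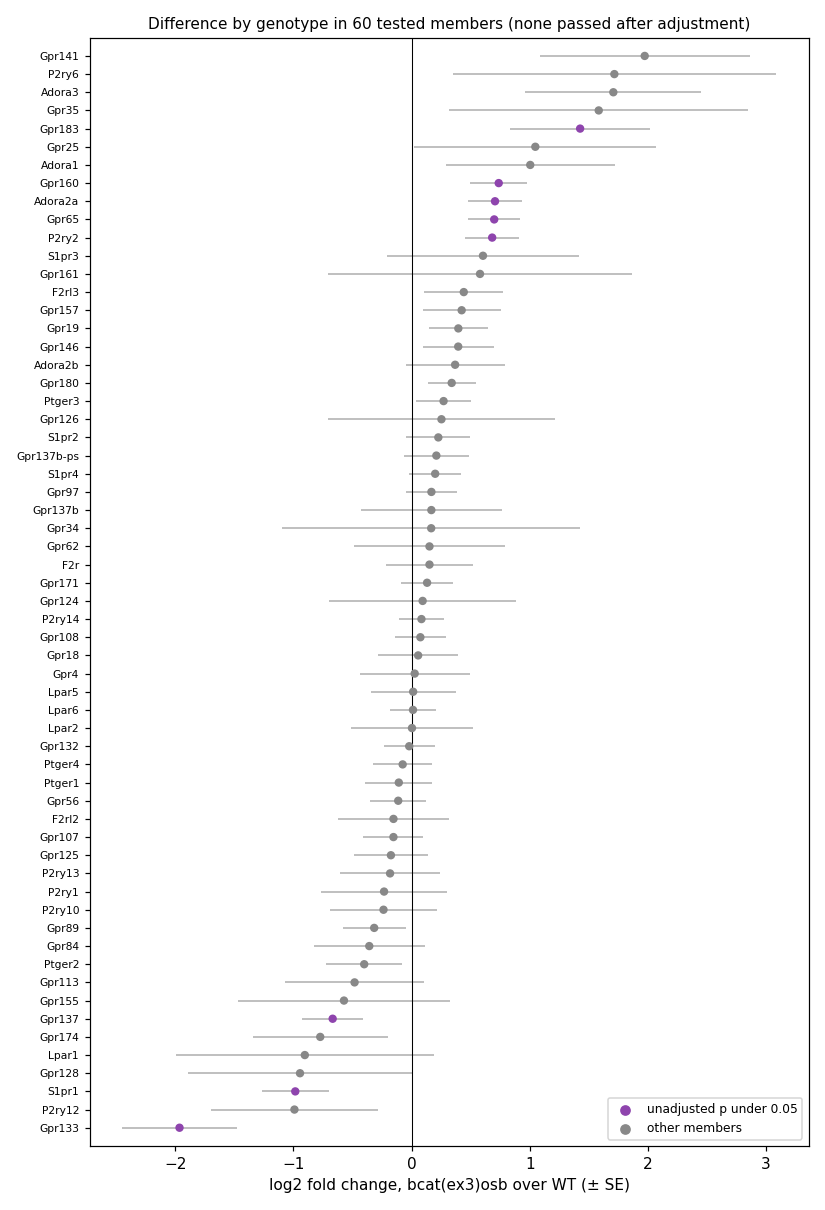
Log2 fold change of 60 of the 63 tested members, bcat(ex3)osb over WT, with its standard error from edgeR. Purple points mark the 8 members drawn that had an unadjusted p under 0.05; Gpr133 at -1.96 and Gpr141 at 1.97 are the ends of the range.

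Levels between genes are given as FPKM, which divides by gene length, and values of 1 gene across mice as CPM on the TMM scale. A log2 fold change is of mutant over WT mice and is followed by its SE from edgeR. The range over the members was wide, from 519 FPKM for Gpr56 to 0.0983 FPKM for Adora1, as means of the 6 libraries. Gpr56, an adhesion receptor known as a marker of blood stem cells, held 42.9% of the summed FPKM of the members. After it came Gpr97, an adhesion receptor of granulocytes, at 132 FPKM, Gpr171 at 93.4, the Golgi protein gene Gpr108 at 45.8 and P2ry14, the receptor of UDP-glucose, at 44.4. The protease-activated receptor F2rl3 averaged 38.6 FPKM, Gpr65 27.2, Gpr89 26.4, the lysophosphatidic acid receptor Lpar6 21.2 and the prostaglandin E2 receptor Ptger3 21.1. In all, 18 members had a mean of 10 FPKM or more, 28 lay between 1 and 10, and 18 lay below 1.

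Gpr56, Gpr171, P2ry14, Gpr97 and Lpar6 were among the most abundant receptors and had overlapping values in the genotypes, while Gpr65, Gpr160 and Adora2a, also above 10 FPKM, did not overlap and are described below. Gpr56 was at 1751, 1839 and 2161 CPM in the bcat(ex3)osb mice, against 2579, 1478 and 2162 CPM in the WT mice. These ranges overlap, and the log2 fold change was -0.11 ± 0.24 (SE). Gpr171 had a log2 fold change of 0.13 ± 0.22, P2ry14 0.08 ± 0.19, Gpr97 0.17 ± 0.21 and Lpar6 0.01 ± 0.19, each smaller than its SE. Among the 18 members of 10 FPKM or more the log2 fold changes lay between -0.32 (Gpr89) and 0.74 (Gpr160), with SEs up to 0.37. Among the 17 tested members under 1 FPKM they lay between -1.01 and 1.97, with SEs between 0.51 and 1.37.

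**Figure D2:**
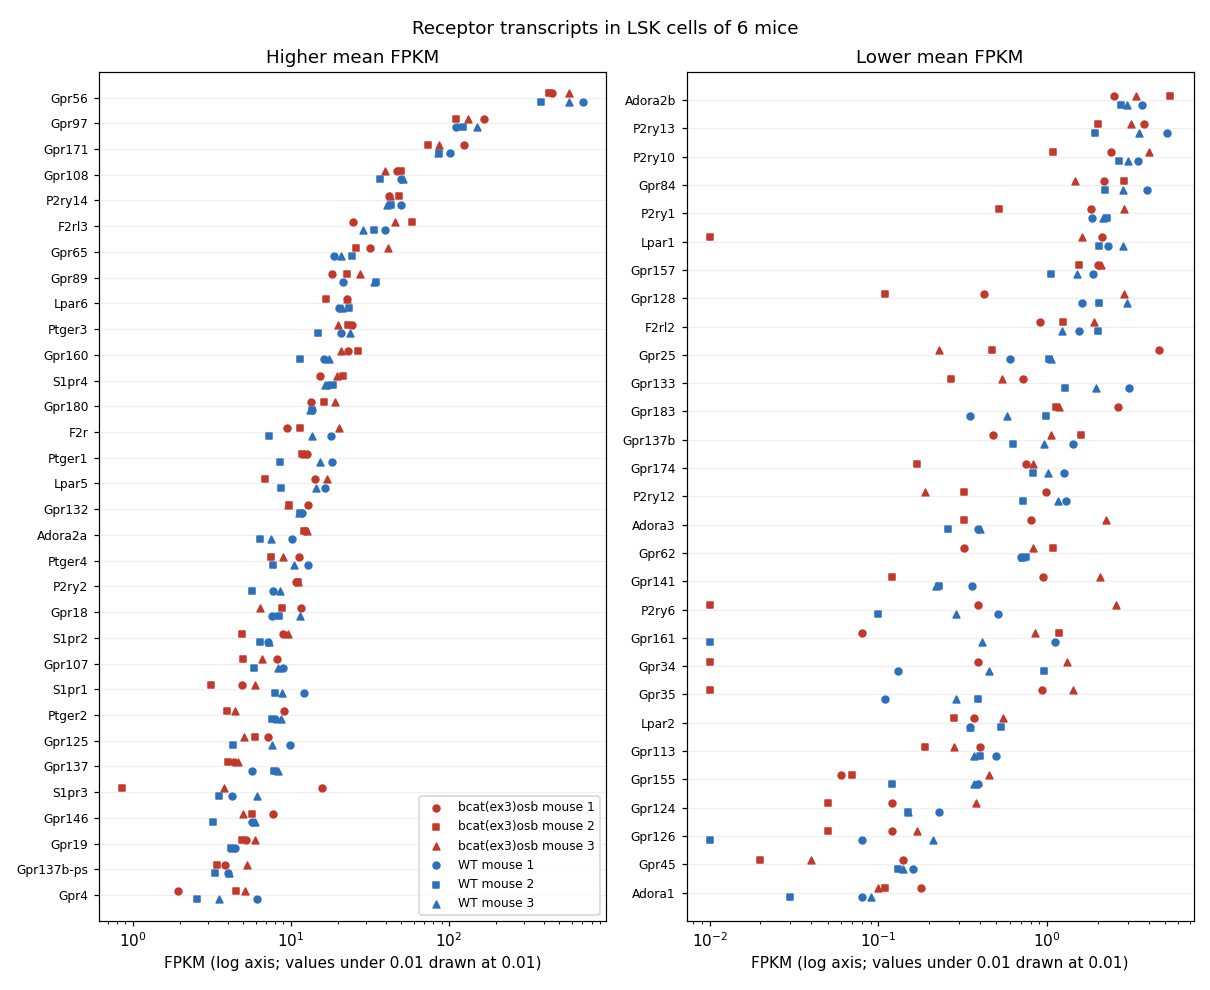
FPKM of 61 of the 64 members in each of the 6 libraries on a log axis, ordered by mean level, with bcat(ex3)osb mice in red above WT mice in blue and the mouse number as the point shape. Most genes above 10 FPKM have interleaved points, while genes near or under 1 FPKM spread widely, and mutant mouse 2 (red square) sits at the left edge for Lpar1, P2ry6, Gpr34 and Gpr35.

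Among the lipid receptors, those of sphingosine-1-phosphate differed from one another. S1pr1, which signals through Gi, lies on chromosome 3 from 115710433 to 115715055 (GRCm38, the assembly of mm10). It was at 14.9, 10.5 and 17.5 CPM in the bcat(ex3)osb mice, against 34.9, 24.3 and 25.8 CPM in the WT mice. The highest mutant value was below the lowest WT value. The log2 fold change was -0.98 ± 0.28 (SE), with an unadjusted edgeR p of 0.00809 and an adjusted p of 0.504. With sex as a covariate, which leaves mutant mouse 3 as the 1 mutant mouse compared within a sex, it was -0.69.

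The other sphingosine-1-phosphate receptors had overlapping values in the genotypes. S1pr4, the receptor largely confined to blood cells, had a mean of 46.5 ± 10.1 CPM in the bcat(ex3)osb group, against 40.5 ± 3.32 CPM in the WT group (SD, n = 3 per group). S1pr2, which couples to G12 and G13, averaged 22.3 ± 6.07 CPM in mutant mice and 19.1 ± 0.963 CPM in WT mice. S1pr3 was at 71.5, 4.26 and 16.5 CPM in the bcat(ex3)osb mice, against 18.0, 15.9 and 26.9 CPM in the WT mice. The mutant mice thus held both the highest and the lowest S1pr3 value, and its log2 fold change of 0.60 ± 0.82 was -0.97 without mutant mouse 1. In FPKM, S1pr1 (4.65 ± 1.42) averaged less than S1pr2 (7.82 ± 2.53) in mutant mice, and more in WT mice (9.64 ± 2.22 for S1pr1 and 6.97 ± 0.500 for S1pr2). The difference between these differences was not tested.

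Receptors of lysophosphatidic acid and prostaglandin E2 had overlapping values in the genotypes. Lpar6, Lpar5 and Lpar2 had log2 fold changes of 0.01 ± 0.19, 0.01 ± 0.36 and 0.00 ± 0.51. Lpar1 was at 7.54, 0.0 and 5.54 CPM in the bcat(ex3)osb mice, against 7.71, 7.22 and 9.63 CPM in the WT mice, so the low mutant mean rests on mutant mouse 2. The prostaglandin receptors that raise cyclic AMP, Ptger2 and Ptger4, had log2 fold changes of -0.40 ± 0.32 and -0.08 ± 0.25. Ptger2 was at 34.2, 16.6 and 16.4 CPM in the bcat(ex3)osb mice, against 28.4, 28.6 and 31.7 CPM in the WT mice, with mutant mouse 1 above and the other two below the WT range. Ptger3, which couples to Gi, and Ptger1 had log2 fold changes of 0.27 ± 0.23 and -0.11 ± 0.29.

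Other lipids are read by Gpr183, Gpr174 and P2ry10. Gpr183, which guides cells along oxysterol gradients, was at 7.81, 3.68 and 3.38 CPM in the bcat(ex3)osb mice, against 0.970, 2.93 and 1.65 CPM in the WT mice. The groups did not overlap, and the log2 fold change was 1.43 ± 0.60 (edgeR unadjusted p = 0.0433, adjusted p = 0.741), with 0.93 without mutant mouse 1 and 0.88 with sex as a covariate. Its neighbour Gpr18 lies in the same stretch of chromosome 14 and had a log2 fold change of 0.06 ± 0.34. Both genes sit within Ubac2 on the opposite strand, and the strand setting of the counting is not given, so reads of Ubac2 could be counted in them. Gpr174, a lysophosphatidylserine receptor of lymphocytes, was at 4.04, 1.03 and 4.38 CPM in the bcat(ex3)osb mice, against 6.40, 4.49 and 5.30 CPM in the WT mice. Its log2 fold change was -0.77 ± 0.57, and P2ry10, a related receptor beside it on chromosome X, had -0.24 ± 0.45.

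Of the receptors of adenosine and nucleotides, Adora2a, P2ry2 and the scarce Adora1 had a higher CPM in each mutant mouse than in any WT mouse. Adora2a, an adenosine receptor that raises cyclic AMP, was at 31.3, 34.1 and 31.3 CPM in the bcat(ex3)osb mice, against 24.4, 16.3 and 18.5 CPM in the WT mice. The log2 fold change was 0.71 ± 0.23 (SE; edgeR unadjusted p = 0.0157, adjusted p = 0.584), and 0.66 with sex as a covariate. P2ry2, which responds to ATP and UTP, was at 32.7, 37.2 and 32.7 CPM in the bcat(ex3)osb mice, against 21.9, 17.0 and 24.9 CPM in the WT mice. Its log2 fold change was 0.68 ± 0.23 (edgeR unadjusted p = 0.0166, adjusted p = 0.586), and 0.62 with sex as a covariate. In Adora2a and P2ry2 the 3 mutant mice were close to each other and above the WT mice.

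The other adenosine receptors were scarce. Adora2b had a mean of 7.25 ± 3.35 CPM in the bcat(ex3)osb group, against 5.61 ± 0.701 CPM in the WT group (SD, n = 3 per group). Adora3 was at 2.21, 0.968 and 6.04 CPM in the bcat(ex3)osb mice, against 1.02, 0.715 and 1.07 CPM in the WT mice, a log2 fold change of 1.71 ± 0.74, and overlaps Tmigd3 on the same strand. Adora1, a Gi-coupled receptor, had 19, 11 and 10 counts in the bcat(ex3)osb mice, against 9, 3 and 10 counts in the WT mice. In CPM the values were 1.02, 0.710 and 0.554 in the bcat(ex3)osb mice, against 0.436, 0.195 and 0.486 in the WT mice, without overlap. The log2 fold change was 1.00 ± 0.71 (edgeR unadjusted p = 0.197). With 10 as its third-highest count, Adora1 sits at the edge of the rule. So does Gpr45, the 1 member left untested by edgeR's filter, while Gpr137c with a third-highest count of 9 fell just outside.

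P2ry12, P2ry13 and P2ry14 stand in a row with Gpr171 on chromosome 3 from 59096448 to 59262985, all within Med12l on the opposite strand. They differ widely in level: Gpr171 and P2ry14 averaged 93.4 and 44.4 FPKM, and the ADP receptors P2ry13 and P2ry12 3.25 and 0.777 FPKM. P2ry12 had a log2 fold change of -0.99 ± 0.71 and P2ry13 -0.18 ± 0.42. The ADP receptor P2ry1 was at 7.11, 2.26 and 10.9 CPM in the bcat(ex3)osb mice, against 6.79, 8.91 and 8.12 CPM in the WT mice. P2ry6, the UDP receptor next to P2ry2 on chromosome 7, was at 0.754, 0.0 and 4.77 CPM in the bcat(ex3)osb mice, against 0.921, 0.195 and 0.535 CPM in the WT mice.

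F2r and F2rl3 are protease-activated receptors that thrombin cleaves. F2rl3, known as PAR4, was at 44.0, 115 and 78.5 CPM in the bcat(ex3)osb mice, against 66.0, 59.6 and 49.2 CPM in the WT mice. Its log2 fold change was 0.44 ± 0.33, and 0.07 without mutant mouse 2. F2r, known as PAR1, spread widely within mutant mice (31.6 to 64.6 CPM) and within WT mice (24.3 to 56.4 CPM), with a log2 fold change of 0.15 ± 0.37. F2rl2, which helps to present thrombin to other receptors, lies beside F2r on chromosome 13 and had a log2 fold change of -0.15 ± 0.47.

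Of the receptors that sense acid outside the cell, Gpr65 stood at a higher level in each mutant mouse. Gpr65 lies on chromosome 12 from 98268635 to 98276722 and couples to Gs. It was at 69.0, 62.0 and 86.7 CPM in the bcat(ex3)osb mice, against 38.1, 52.9 and 43.1 CPM in the WT mice. The log2 fold change was 0.70 ± 0.22 (edgeR unadjusted p = 0.0127, adjusted p = 0.562), and 0.96 with sex as a covariate. Its relatives Gpr132 and Gpr4 had log2 fold changes of -0.02 ± 0.22 and 0.03 ± 0.47.

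Upstream sequences are shown for Gpr65 and Gpr183, which were higher in each mutant mouse than in any WT mouse, to set their proximal promoters side by side. Each is the 250 bases before the annotated start from RefSeq (GRCm38.p6), written in the direction of the gene. Capitals mark 6-base matches on either strand to 4 motifs. GGGCGG is the GC box of Sp and KLF factors, and AGGAAG is a core shared by ETS factors, among them PU.1. The motif TGTGGT is bound by RUNX factors. The motif AGATAA is bound by factors of the Gata family.
Gpr65 (chr12:98268385-98268634, plus strand): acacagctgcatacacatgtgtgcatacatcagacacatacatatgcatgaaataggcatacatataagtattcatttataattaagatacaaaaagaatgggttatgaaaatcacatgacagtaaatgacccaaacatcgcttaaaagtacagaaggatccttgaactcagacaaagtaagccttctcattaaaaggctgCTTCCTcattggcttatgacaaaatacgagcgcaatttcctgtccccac
Gpr183 (chr14:121965194-121965443, minus strand): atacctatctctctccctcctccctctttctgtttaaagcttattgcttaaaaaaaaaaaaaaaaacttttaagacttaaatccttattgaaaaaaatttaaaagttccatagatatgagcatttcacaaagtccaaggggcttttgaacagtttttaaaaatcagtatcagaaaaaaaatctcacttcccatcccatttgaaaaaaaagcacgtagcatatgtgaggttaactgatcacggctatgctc
The Gpr65 window held 1 match to AGGAAG, read on the opposite strand, and the Gpr183 window held 0 matches to the 4 motifs, so it has no capitals. A window was given for 51 members. GGGCGG was found upstream of 24 of these (47.1%, against 35.4% of all 27025 genes with a window), AGGAAG of 22 (43.1%, against 32.3%), TGTGGT of 14 (27.5%, against 15.9%) and AGATAA of 7 (13.7%, against 11.4%). Such matches describe letters and do not show that a factor binds.

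The adhesion receptors included the member with the smallest p. Gpr133 (now Adgrd1), which raises cyclic AMP through Gs, lies on chromosome 5 from 129096750 to 129204599. It was at 3.71, 1.55 and 2.72 CPM in the bcat(ex3)osb mice, against 14.9, 6.57 and 9.78 CPM in the WT mice. Every mutant value was below every WT value. The log2 fold change was -1.96 ± 0.48 (edgeR unadjusted p = 0.00358, adjusted p = 0.449), and -1.94 with sex as a covariate. Gpr125 (now Adgra3), a more abundant adhesion receptor, had a mean of 27.9 ± 5.11 CPM in the bcat(ex3)osb group, against 31.5 ± 11.3 CPM in the WT group (SD, n = 3 per group).

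The adhesion receptor Gpr128 (now Adgrg7) spread widely among mutant mice, at 1.13, 0.323 and 7.54 CPM in the bcat(ex3)osb mice, against 4.12, 5.46 and 7.78 CPM in the WT mice. Mutant mice 1 and 2 were below all WT mice and mutant mouse 3 was within their range, and the log2 fold change was -0.94 ± 0.95. Gpr56 and Gpr97, described above, are neighbours on chromosome 8.

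**Figure D3:**
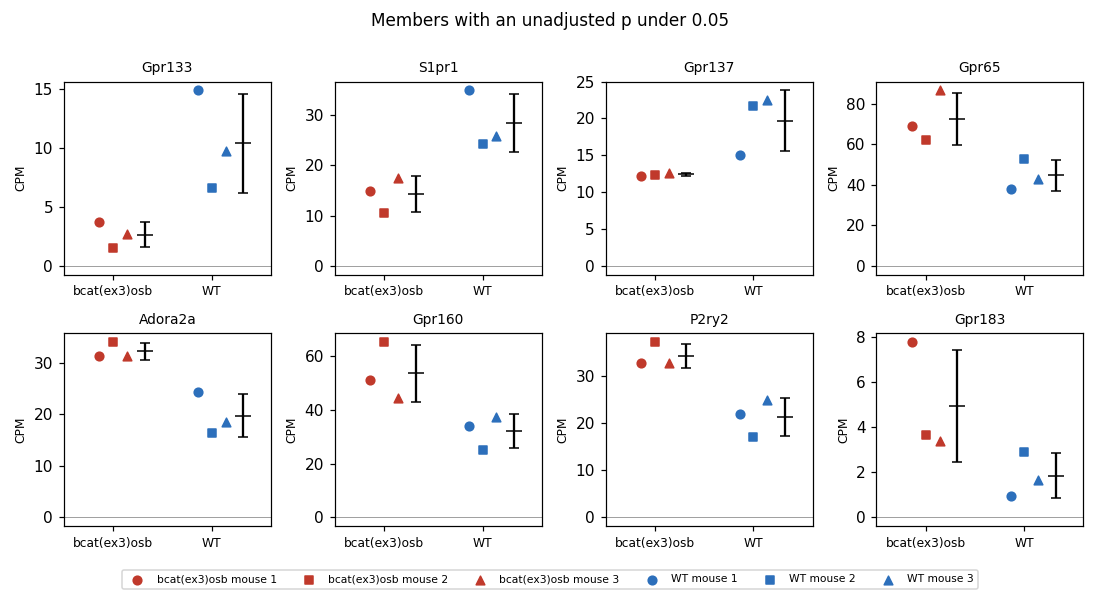
CPM of 8 of the 9 members with an unadjusted p under 0.05, each mouse as a point, bcat(ex3)osb left of WT, with the mean and SD as a bar beside each group. The groups are separate in every panel, closest for Gpr183, where the lowest mutant mouse is at 3.38 CPM and the highest WT mouse at 2.93 CPM.

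Among receptors without an established ligand, Gpr160 was at 51.1, 65.5 and 44.7 CPM in the bcat(ex3)osb mice, against 34.0, 25.2 and 37.5 CPM in the WT mice. The groups did not overlap, with a log2 fold change of 0.74 ± 0.24 (edgeR unadjusted p = 0.0159, adjusted p = 0.585) and 0.47 with sex as a covariate. Gpr19 was tight within each group, at 13.9 ± 0.641 CPM in the bcat(ex3)osb group, against 10.5 ± 0.129 CPM in the WT group (SD, n = 3 per group), and its log2 fold change was 0.40 ± 0.25 (edgeR unadjusted p = 0.153). Gpr141 was at 3.23, 0.452 and 6.87 CPM in the bcat(ex3)osb mice, against 1.16, 0.780 and 0.730 CPM in the WT mice. Gpr180 had a log2 fold change of 0.34 ± 0.20.

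Of the Golgi and lysosomal proteins, Gpr137, a lysosomal membrane protein, was at 12.2, 12.4 and 12.6 CPM in the bcat(ex3)osb mice, against 15.0, 21.7 and 22.5 CPM in the WT mice. The mutant mice were nearly alike and below the WT mice, with a log2 fold change of -0.67 ± 0.26 (edgeR unadjusted p = 0.0336, adjusted p = 0.710) and -0.65 with sex as a covariate. The gene overlaps Bad on the opposite strand. In all, 19 members overlap another protein-coding gene. Gpr108 and Gpr89 had log2 fold changes of 0.07 ± 0.21 and -0.32 ± 0.27. The 21 members not chosen by the rule for named genes had log2 fold changes between -0.57 and 1.58, mean levels between 0.105 and 11.1 FPKM, and unadjusted edgeR p-values of 0.225 or more. Those of them given values here (Gpr4, Gpr18, Gpr34, Gpr35, Gpr45, Gpr125 and Gpr132) were chosen after their values were seen.

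Some low receptors had no counts in the library of mutant mouse 2. That library had the fewest genes with a count, 13423, against 14044 to 15102 in the others. The part of this in the zeros was not tested. Gpr35, Lpar1, P2ry6 and Gpr34 were among those with 0 counts in mutant mouse 2 and 10 or more in both other mutant libraries. In all, 5 of 63 members had this pattern (7.94%), beside 1.19% of all genes tested, and were picked after their values were seen. A count of 0 in that library allows a level of up to 0.194 CPM, for counting error only. Gpr35 was at 4.20, 0.0 and 6.27 CPM in the bcat(ex3)osb mice, against 0.485, 1.76 and 1.26 CPM in the WT mice. Mutant mouse 2 was the lowest of the 6 libraries for 22 members (34.9%, against 29.9% of all genes) and the highest for 12 (19.0%, against 28.9%). Mutant mouse 3 was the highest for 18 (28.6%, against 12.4%) and the lowest for 7 (11.1%, against 9.21%).

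Marker sums of other cell types were read in the same libraries. Summed over 13 monocyte and dendritic cell markers, the level was 2051, 1152 and 4184 CPM in the bcat(ex3)osb mice, against 1287 to 1606 CPM in WT mice. Over 12 macrophage markers it was 23.5 to 93.4 CPM in mutant and 104 to 165 CPM in WT mice. Over 12 B cell markers it was 640.1, 101 and 81.7 CPM in the bcat(ex3)osb mice, against 675.5 to 1163 CPM in WT mice. Granulocyte-monocyte progenitor markers summed to 6783 to 11869 CPM over 12 genes in mutant and 1493 to 3478 CPM in WT mice, and mast cell, basophil and eosinophil markers over 11 genes to 417 to 751 CPM in mutant and 213 to 263 CPM in WT mice. All 12 and all 11 had positive log2 fold changes, with medians of 1.88 and 1.99. At an edgeR unadjusted p under 0.05, 11 and 7 of them were higher, against 3.43% of all genes. All 12 B cell markers had negative values (median -1.98), as did 9 of 10 tested macrophage markers (median -1.45). At that p, 2 were lower in each of these lists, against 3.13% of all genes. The monocyte and dendritic cell sums overlapped between genotypes. They include Flt3 of the LSK gate list, at 847 to 1090 CPM in mutant and 746 to 1231 CPM in WT mice. Of the list's 12 tested markers, 11 had a positive log2 fold change, where 50.3% of all genes did, with a median of 1.75. At an edgeR unadjusted p under 0.05, 4 of them were higher, against 3.43% of all genes, and 0 lower. The sums of the following lists also overlapped. For 9 T and NK cell markers they were 300.3 to 432 CPM in mutant and 286 to 447 CPM in WT mice, and for 9 mature neutrophil markers 37.6 to 142 CPM in mutant and 15.1 to 160.0 CPM in WT mice. For 10 megakaryocyte markers they were 253 to 484 CPM in mutant and 228 to 514 CPM in WT mice. For 8 erythroid markers they were 66.4 to 116 CPM in mutant and 43.8 to 85.0 CPM in WT mice, and for 10 endothelial and stromal markers 74.8 to 174 CPM in mutant and 95.4 to 170 CPM in WT mice. Of all these markers, Gp6 and Hba-a1 had 0 counts in every library. The part of these cells in the receptor values was not tested, and in bulk RNA fewer cells of a type and less RNA per cell cannot be told apart.

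**Figure D4:**
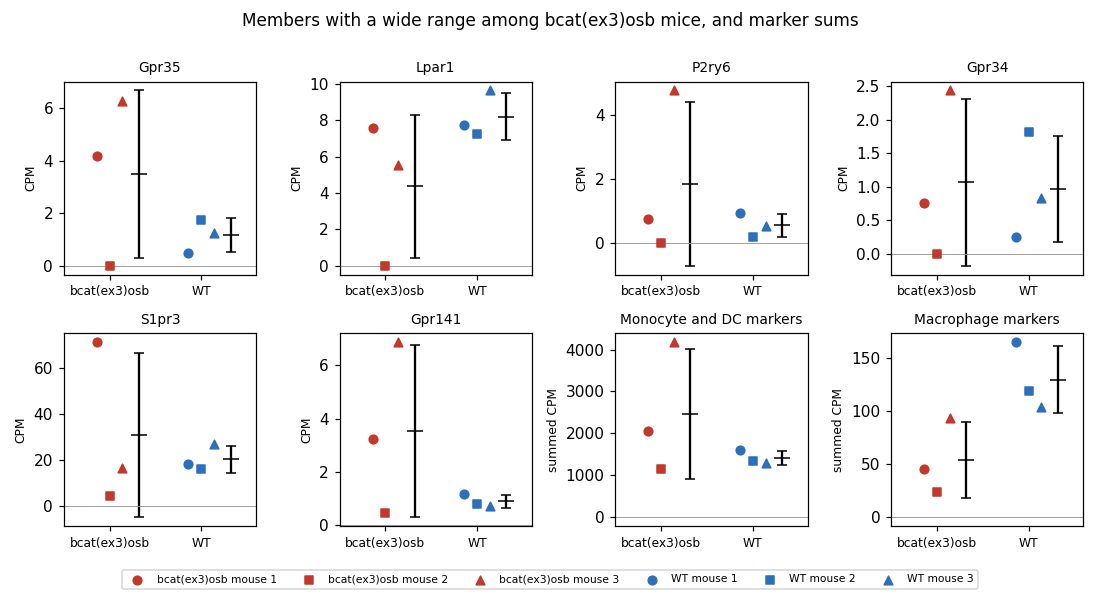
CPM of 6 members with a wide range among bcat(ex3)osb mice and the summed CPM of 2 marker lists, each mouse as a point, bcat(ex3)osb left of WT, with mean and SD. Mutant mouse 2 is the lowest mutant mouse in every panel, and the monocyte and dendritic cell sum runs from 1152 to 4184 CPM over the mutant mice.

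The machinery behind the receptors was read from 6 lists, and a seventh held chemokine and chemoattractant receptors. Of their 101 tested genes, edgeR called 0 in either direction after adjustment, and DESeq2 called 3 higher, Arrb2, Ccr1 and Ccr2, beside 0.798% of all genes called higher. Counts without adjustment below are of genes at an edgeR unadjusted p under 0.05, which 3.43% of all genes reached as higher and 3.13% as lower. Arrb2, an arrestin that uncouples and internalises active receptors, was at 119.6, 170.4 and 124 CPM in the bcat(ex3)osb mice, against 73.7, 60.2 and 72.0 CPM in the WT mice. Its log2 fold change was 1.01 ± 0.21 with an edgeR adjusted p of 0.333. Grk6, a receptor kinase, had a log2 fold change of 0.39 ± 0.19. Of 11 tested receptor kinases and arrestins, 1 was higher and 0 lower without adjustment, with a list median of -0.05.

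Values of G protein subunits lay on both sides of WT. Gna15, an alpha subunit of blood cells that couples to phospholipase C, had a mean of 144 ± 8.52 CPM in the bcat(ex3)osb group, against 104 ± 1.71 CPM in the WT group (SD, n = 3 per group), a log2 fold change of 0.47 ± 0.16. The alpha subunit Gnaz had -1.53 ± 0.63. Over 12 tested alpha subunits 1 was higher and 1 lower without adjustment, with a median of 0.13. Gnb4, a beta subunit, had a mean of 27.5 ± 4.73 CPM in the bcat(ex3)osb group, against 59.4 ± 26.2 CPM in the WT group, and Gng12, a gamma subunit, had 0.47 ± 0.18. The 11 tested beta and gamma subunits had a median of -0.03, with 1 higher and 1 lower without adjustment.

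RGS proteins speed the switching-off of G proteins. Rgs1 was at 28.3, 83.5 and 38.8 CPM in the bcat(ex3)osb mice, against 20.2, 28.4 and 19.7 CPM in the WT mice, and Rgs11 had a log2 fold change of -2.57 ± 0.75. The 11 tested RGS genes had a median of 0.16, with 1 gene on each side without adjustment. Among the effectors, 10 of 11 tested adenylyl cyclases, phospholipases C beta and PDE4 phosphodiesterases had negative values, where 50.3% of all genes had positive ones. The median of that list was -0.36, 1 gene was lower at an unadjusted p under 0.05 and 0 passed adjustment. Plcb4 had -0.70 ± 0.29 and Plcb2, the main such phospholipase of blood cells, -0.56 ± 0.26. Of 24 tested enzymes and transporters of the ligands, 10 had positive and 14 negative values, with a median of -0.08. At an unadjusted p under 0.05, 1 was lower and 0 higher, and 0 passed adjustment. Ppap2b (now Plpp3), a lipid phosphatase that degrades sphingosine-1-phosphate and lysophosphatidic acid, had -2.40 ± 1.00. Ada, which breaks down adenosine, had a mean of 56.1 ± 4.17 CPM in the bcat(ex3)osb group, against 68.7 ± 2.39 CPM in the WT group (SD, n = 3 per group). Of 21 tested chemokine and chemoattractant receptors, 5 were higher without adjustment, against 3.43% of all genes, and 1 was lower, against 3.13%. The median was 0.55, and 0 passed adjustment by edgeR. Ccr2, the monocyte chemokine receptor, had 2.12 ± 0.35 and Ccr1 2.60 ± 0.55. Monocytes also express both, and the part of such cells in these values was not tested.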

How the data were processed

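RNA of sorted marrow cells was extracted with AllPrep (Qiagen) and made into TruSeq Stranded Total RNA libraries amplified with KAPA HiFi, per the labels' protocols. bcl2fastq 2.17, STAR 2.5.2b, featureCounts 1.5.0-p3 and mm10 are named, per the submitters' processing notes. Strand setting, multimapped reads and annotation version are not stated. The deposited files hold whole-number counts per gene and, separately, the authors' FPKM values.

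The count test was edgeR 4.0.16 under R 4.3.3: filterByExpr by genotype (minimum count 10, minimum total 15), TMM scaling, glmQLFit and glmQLFTest, with Benjamini-Hochberg adjustment over 12653 genes and a threshold of 0.05. SE is the log2 fold change divided by the square root of F. CPM is a count relative to the TMM-scaled library size. DESeq2 1.42.0, limma-voom and limma 3.58.1 on log2(FPKM + 1) and log2(FPKM + 0.1) were alternatives, with other scalings and filters, sex as a covariate and leaving out each mouse. The pipeline was tested on simulated data. Total counts were 15431235 to 19956774 per library, and intervals from counts cover counting error only. Each library is 1 mouse, so a p-value sets the difference between genotypes against the spread between mice.

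The members and gene lists were chosen with earlier results of these data known. Named members were the 10 with the highest mean FPKM, the 10 tested with the smallest unadjusted p in each direction, and all of the S1pr, Lpar, Ptger, Adora, P2ry and F2r families; from each signalling list, the 2 with the smallest unadjusted p. Coordinates, overlaps and promoters are from RefSeq GRCm38.p6 and GENCODE vM21. Values of 3 members are counted in the totals but not reported here.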

Additional observations from a re-analysis of the deposited data

How the results depend on the processing

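No member passed an adjusted p of 0.05 by edgeR under any scaling, filter, threshold or left-out mouse that was run, nor by limma. DESeq2 called 1 member, Gpr133, lower (log2 fold change -1.95, adjusted p = 0.0124) and 3 genes of the G protein signalling lists. Gpr133's adjusted p lay between 0.123 and 1.0 under the other alternatives. The 9 members at an edgeR unadjusted p under 0.05 became 4 to 14 over the leave-one-out fits, not always from among the 9. With sex as a covariate only mutant mouse 3 is compared within a sex, so no count is given for that fit. Of the 43 named members, 25 kept their sign in every alternative and 18 did not; the cause was not tested.

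With sex as a covariate the log2 fold change was 0.27 for F2rl2, -0.21 for Gpr108, 0.38 for Gpr128, -0.079 for Gpr171, 0.0597 for Gpr56, 0.45 for P2ry1, 0.40 for P2ry10, -0.056 for P2ry14 and -0.29 for S1pr3. With upper-quartile scaling it was -0.0401 for Lpar2, -0.0199 for Lpar5 and -0.0299 for Lpar6. On log2(FPKM + 1) it was -0.0077 for Gpr108, -0.012 for Lpar2, -0.085 for Lpar5, -0.065 for Lpar6, -0.0023 for P2ry14 and -0.062 for S1pr3. On log2(FPKM + 0.1) it was -0.0077 for Gpr108, -0.045 for Lpar2, -0.096 for Lpar5, -0.068 for Lpar6, -0.0024 for P2ry14 and -0.24 for S1pr3. With limma-voom it was -0.024 for Lpar5 and -0.15 for S1pr3.

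Leaving out 1 mouse gave ranges that crossed 0: Adora2b -0.065 to 0.61, F2r -0.17 to 0.44, F2rl2 -0.42 to 0.074, Gpr108 -0.059 to 0.20, Gpr171 -0.098 to 0.24, Gpr56 -0.31 to 0.073, Lpar2 -0.25 to 0.26, Lpar5 -0.21 to 0.28 and Lpar6 -0.0498 to 0.098. Likewise P2ry1 ran from -0.76 to 0.18, P2ry10 from -0.71 to 0.093, P2ry13 from -0.46 to 0.17, P2ry14 from -0.049 to 0.15, P2ry6 from -0.52 to 2.29, Ptger1 from -0.35 to 0.098, Ptger4 from -0.23 to 0.084 and S1pr3 from -0.97 to 1.12.

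Mutant and WT mice with the same number correlated at 0.11, 0.344 and 0.0567, and those with different numbers at -0.287 to 0.279. So few correlations, with overlapping ranges, cannot decide whether the numbers pair the samples. A replicate block gave 0 called members, -0.016 for Lpar5 and -0.21 for S1pr3. Precision was limited by 3 mice per genotype: the members' SEs had a median of 0.42 and reached 1.38.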

Other observations

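Of the 125 receptor symbols, 61 fell below the count rule, and 23 of these had 0 counts in every library. Gpr33 had the highest total among them, with 15, 0 and 43 counts in mutant mice 1, 2 and 3 and 1, 0 and 6 counts in WT mice 1, 2 and 3. Lpar4 had 0, 2 and 0 counts in mutant mice 1, 2 and 3 and 8, 7 and 16 counts in WT mice 1, 2 and 3. Gpr82 had 12, 7 and 14 counts in mutant mice 1, 2 and 3 and 1, 2 and 2 counts in WT mice 1, 2 and 3. Gpr15 had 16, 22 and 0 counts in mutant mice 1, 2 and 3 and 8, 0 and 7 counts in WT mice 1, 2 and 3. The Lpar4 and Gpr82 groups did not overlap in counts. These genes were chosen after their values were seen and were not tested.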
